A study of Mus musculus with 13 samples.

Results

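The nuclear-encoded respiratory chain genes of the mouse mammary gland were compared between tumors of females with a TSG101 transgene and normal glands. A row of the count table was a member where its symbol began with Nduf followed by a, b, c, s or v and a digit, was Sdha, Sdhb, Sdhc or Sdhd, began with Uqcr, began with Cox and a digit from 4 to 8, or began with Atp5. This gave 87 of the 15213 genes listed, 42 of complex I, 4 of complex II, 8 of complex III, 15 of complex IV and 18 of complex V. Bulk RNA had been sequenced from 10 mammary tumors, which arose in 6 females labelled MtTA Teto-TSG101wt, and from 1 mammary gland of each of 3 FVB females labelled Wildtype. The tumor-bearing females carried MMTV-tTA, which drives the tetracycline transactivator in mammary epithelium in a mosaic manner, and a TetO responder for HA-tagged Tsg101 with an IRES-luciferase reporter, both on an FVB background. Tumors 2 and 3, tumors 5 and 6, and tumors 8, 9 and 10 came from the same female each and are not independent of each other. The age and reproductive stage of the females of both groups were not given in the sources used here, and no doxycycline was stated for these tissues. By the study's methods, molecular work on the tumors used 1 founder line of the responder. In pieces of whole tissue, fewer cells of a type and less RNA per cell cannot be told apart.

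The respiratory chain moves electrons from NADH and succinate to oxygen in the inner mitochondrial membrane and uses the energy to pump protons. Complex I accepts the electrons of NADH, complex II those of succinate, complex III hands them to cytochrome c, complex IV reduces oxygen, and complex V, the ATP synthase, lets the protons flow back to make ATP. A few core subunits are encoded in the mitochondrial genome, and most genes described here encode other subunits of the enzymes. Members were taken by symbol, so subunit genes with other symbols are not covered. Complex II is also an enzyme of the tricarboxylic acid cycle. Brown fat, heart and skeletal muscle are rich in these enzymes and use some isoforms that other tissues hardly express.

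Of the 87 members, 82 were annotated as protein-coding and 5 as pseudogenes. Ndufs5-ps, Ndufs6b, Ndufa11b, Uqcrh-ps1 and Atp5c1-ps are copies of a member, and Ndufb4b and Ndufb4c closely resemble Ndufb4. The values of these copies and of the genes they resemble are uncertain, since the counting could split or share reads among them. Ndufs5 was at 1.28, 0.878 and 7.19 normalized cpm in the glands, and Ndufs5-ps at 60.5, 67.4 and 159. In the test across all genes, 82 members passed the filter on low values and 5 did not, namely Sdhd, Cox4i2, Cox6b2, Cox8b and Atp5c1-ps.

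Tumor libraries held 6176269 to 16835397 reads and gland libraries 11672487 to 23889042. They stood apart from each other by transcript length. Among 200 genes outside the respiratory chain with transcripts of up to 600 bases, the median deviation from a gene's mean over the libraries was -1.14 in gland 1, -1.08 in gland 2 and 0.67 in gland 3 on the log2 scale. In the tumors it ran from -0.51 in tumor 4 to 0.97 in tumor 9. Transcripts of the members had a median of 720.5 bases, against 2826 bases for the other genes tested, and 29 members measured up to 600 bases. Their median deviation was -1.0 in gland 1, -0.98 in gland 2 and 1.23 in gland 3. Gland 3 was also higher than other libraries for members of 1500 to 2000 bases, at 1.07, where genes outside the chain gave 0.04. The targeted gene Tsg101, transgene reads not told apart from the endogenous gene, had a median of 63.4 normalized cpm in the tumors, from 49.9 to 101, and was at 45.6, 53.0 and 61.0 in the glands, so that the groups overlapped (log2 fold change 0.30, limma, adjusted p = 0.296). Epithelial markers were present in all libraries, with a summed level of 2331 to 4259 normalized cpm in the tumors and 2086 to 4655 in the glands.

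**Figure D1:**
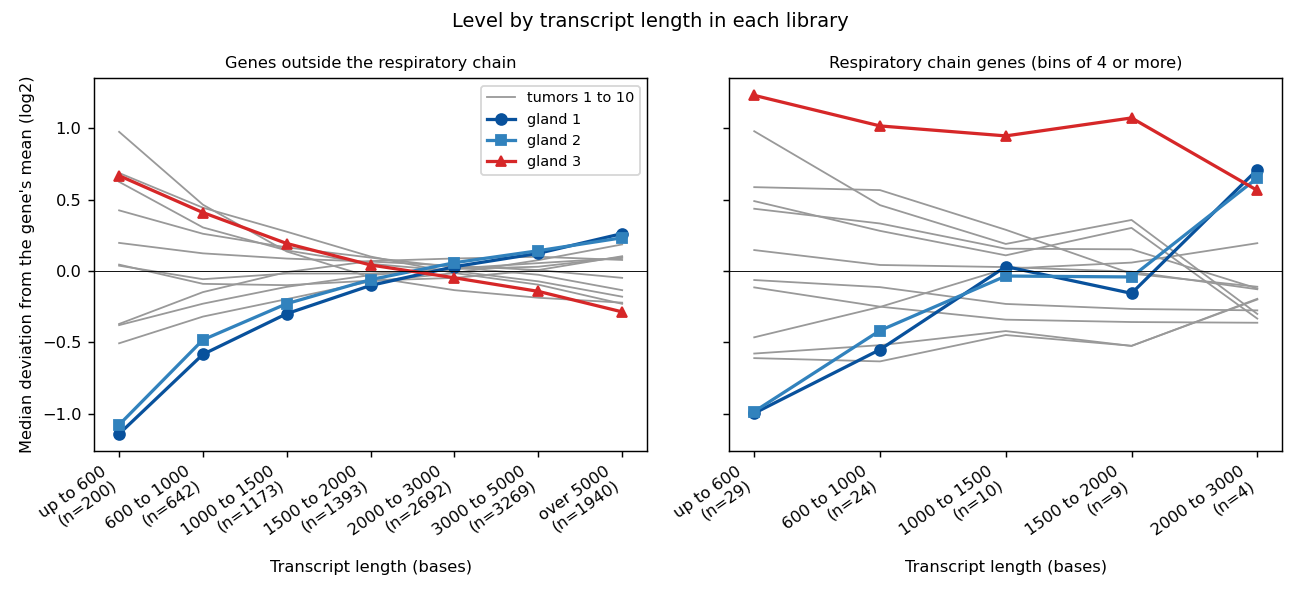
Median deviation of each library from the gene's mean, in log2 units, by transcript length in bases, for genes outside the respiratory chain (left) and for members (right, bins with 4 or more members), with 1 line per library. Glands 1 and 2 fall to -1.14 and -1.08 for the shortest other genes while gland 3 reaches 0.67, and gland 3 lies between 0.95 and 1.23 in the members' bins of up to 2000 bases.

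Genes past an FDR of 0.05 with a change of more than 2-fold were called. Of the 82 members tested, 2 were called higher in tumors, Ndufa4l2 and Atp5g2, where 10.2% of all 11795 genes tested were called higher. No member was called lower by limma, where 6.99% of all genes were. The number of members lower at an unadjusted p under 0.05 was 17 of 82, against 18.2% of all genes, and edgeR and DESeq2 on the recovered reads each called 1 lower, against 7.78% and 7.97% of all genes. At an FDR of 0.05 with no limit on the fold, 11 members were lower, which is 13.4% of those tested, against 13% of all genes. In the other direction, 2 members were higher, against 14.8% of all genes. The share of members lower over all complexes was therefore close to the background.

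The 11 lower members were not spread evenly over transcript length. Of the 14 members with transcripts over 1500 bases, a limit chosen after the values were seen, 8 were lower at the FDR of 0.05 and none was higher. Among the 9294 other genes over 1500 bases, 14.1% were lower. The median log2 fold change of these 14 members was -0.60, and 13 of them were below 0, while the median of the other genes of this length was -0.04. Without gland 3 the median was -0.59 and 8 were lower, against 18.6% of the other long genes, and without gland 1 the median was -0.59 and 5 were lower, against 8.25%. Of the 63 shorter members, 3 were lower, which is 4.76%, and 2 were higher, which is 3.17%, with a median of 0.02. Among the 2015 other genes up to 1500 bases, 9.03% were lower and 18.8% were higher, with a median of 0.21. For these the values turned on the glands, since without gland 3 the median was 0.72 with 20 higher and 1 lower, and without gland 1 it was -0.24. The 20 are 31.7% of the short members, and 31.7% of the other short genes were higher in that fit as well, with a median of 0.44. Over all 82 members, the fit without gland 3 called 18 higher at 2-fold, against 12.8% of all genes, and 2 lower, against 9.5%. Those 2 were Atp5d at -1.12 and Ndufa10 at -1.01.

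**Figure D2:**
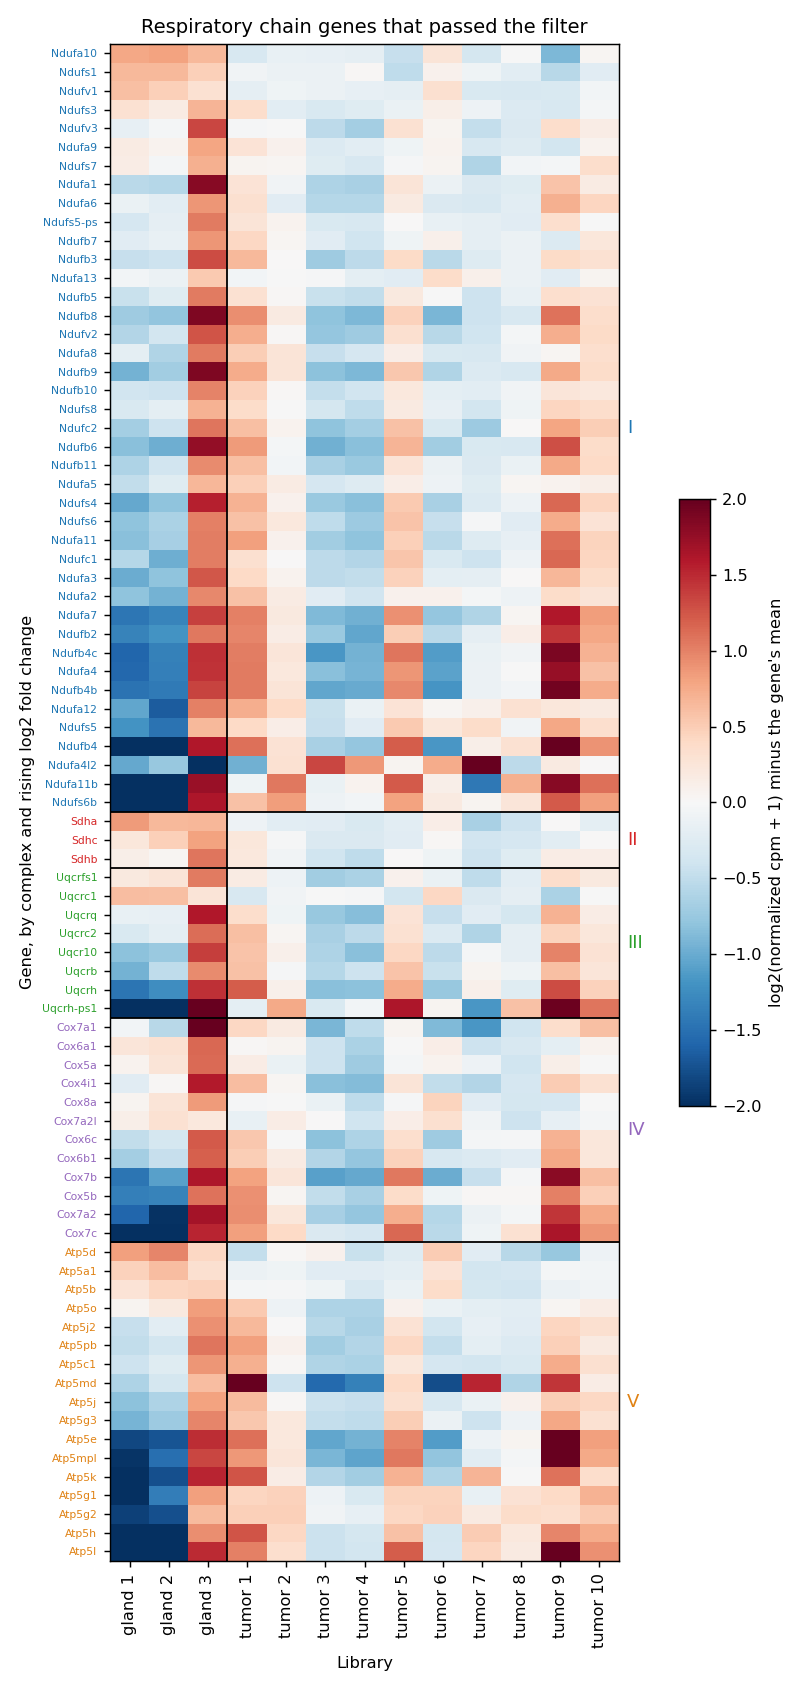
Level of the members that passed the filter, except 1 not reported here, in each library, as log2(normalized cpm + 1) minus the gene's mean, by complex and rising log2 fold change (colors saturate at -2 and 2). Ndufa10, Ndufs1 and Ndufv1 at the top of complex I, Sdha, and Atp5d, Atp5a1 and Atp5b at the top of complex V are red in all 3 glands, while the lower parts of complexes I, III, IV and V are mostly blue in glands 1 and 2 and red in gland 3.

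Complex I is built around 7 nuclear-encoded core subunits that carry the flavin and the iron-sulfur clusters. Of these, 4 were lower at the FDR of 0.05, Ndufs1, Ndufs3 and Ndufv1 among them, and no core subunit was higher, where 13% of all genes were lower and 14.8% were higher, with a median log2 fold change of -0.50 over the 7. Ndufs1 (Entrez 227197, chr1:63143592-63176822 in GRCm38.p6), the largest subunit and the holder of several iron-sulfur clusters, was at 120.1, 119.6 and 107 in the glands. The tumors ran from 51.4 through a median of 70.1 to 81.0, so that the groups did not overlap. It fell by 0.77 ± 0.15 (SE) on the log2 scale (limma, adjusted p = 0.00157). Ndufv1 (Entrez 17995, chr19:4007499-4012755) binds NADH and the flavin. Glands held 163, 149.8 and 132 normalized cpm of it and tumors 85.3 to 134, with a median of 94.5, and 9 of 10 tumors lay below all glands. The difference was -0.60 ± 0.15 (SE), with an adjusted p of 0.00758 by limma, and without gland 1 it was -0.53 and not past the FDR. Ndufs3, a further core subunit, was lower by a smaller margin, with a log2 fold change of -0.50 ± 0.16 (SE) and an adjusted p of 0.0348 by limma. It was no longer past the FDR when gland 1, gland 3 or any of tumors 2, 3, 4, 5 and 8 was left out, with values between -0.54 and -0.36, nor with 1 value per mouse or without the mouse of tumors 8, 9 and 10, both at -0.46.

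The remaining 35 members tested that are named after complex I are accessory subunits, copies, and Ndufa4 and Ndufa4l2. Their median log2 fold change was 0.03, and that of all 42 was -0.03, or 0.53 without gland 3. Of the 35, 1 was lower and 1 was higher at the FDR of 0.05, against 13% and 14.8% of all genes. Ndufa10 (Entrez 67273, chr1:92439486-92473825), an accessory subunit of the membrane arm that resembles nucleoside kinases, had the largest fall of complex I. It was at 163, 168 and 149.9 in the glands and between 51.0 and 115 in the tumors, with a median of 84.8. The groups did not overlap, and the log2 fold change was -0.96 ± 0.20 (SE) with an adjusted p of 0.00191 by limma. The largest rise of complex I was that of Ndufs6b, a pseudogene copy of Ndufs6, at 1.99 ± 0.72 (SE), which did not pass the FDR (limma, adjusted p = 0.0521). It was at 1.11, 0.723 and 49.4 in the 3 glands and from 14.4 to 37.6 in the tumors, so that gland 3 alone exceeded all tumors.

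Ndufa4l2 (Entrez 407790, chr10:127509274-127517154) is a paralog of Ndufa4 known as a target of the hypoxia-inducible factor HIF-1. Its levels were 8.26, 10.2 and 2.93 normalized cpm in the glands. In the tumors they ran from 8.64 in tumor 1 to 75.9 in tumor 7, with a median of 21.3, and 9 of 10 tumors exceeded all glands. It rose by 1.75 ± 0.51 (SE) on the log2 scale, which is 3.36-fold, with an adjusted p of 0.0185 by limma. This call was lost without gland 3, at 1.29 with an adjusted p of 0.091 by limma, and with a correction for transcript length, at 1.51 with an adjusted p of 0.0875. With the slope of each library on transcript length as a covariate, the other way length was taken into account, it was 2.29 ± 0.42 (SE) with an adjusted p of 0.000579 by limma, and with the correction and without gland 3 it was 0.78 ± 0.67 (SE) with an adjusted p of 0.38.

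Complex II is the smallest of the complexes, and all 3 of its members tested had a negative log2 fold change, with a median of -0.65. Sdha (Entrez 66945, chr13:74322255-74350240) encodes the flavoprotein that oxidises succinate. Gland levels were 387, 336 and 339.9 normalized cpm, and the tumors ran from 136 through a median of 184 to 233. Every tumor lay below every gland. The log2 fold change was -0.95 ± 0.16 (SE), which is 1.93-fold lower in tumors, with an adjusted p of 0.000582 by limma. Of the 36 other settings tried, the only one in which Sdha was not past the FDR was the fit with the replicate number as a block. Sdhc (Entrez 66052, chr1:171129157-171150640), a membrane anchor of the complex, was at 156, 185 and 234 in the glands and from 101 to 156 in the tumors. The highest tumor, at 156.1, lay just below the lowest gland, at 156.4. Its log2 fold change was -0.65 ± 0.17 (SE), with an adjusted p of 0.00888 by limma. With the length correction and without gland 3, Sdhc was at -0.39 and not past the FDR (limma, adjusted p = 0.112). Sdhb, the iron-sulfur subunit, had a value of -0.53 ± 0.22 (SE) and did not pass the FDR (limma, adjusted p = 0.0943). Sdhd, the other anchor, did not pass the filter, and its 3 glands stood at 0.214, 0.361 and 20.2 normalized cpm and its tumors at 3.88 to 9.30, above glands 1 and 2 and below gland 3. Without the filter its log2 fold change was 0.99 ± 0.61 (SE) and did not pass the FDR (limma, adjusted p = 0.243).

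In complex III, 1 of 8 members was lower and none was higher, against the same 13% and 14.8% of all genes. The median log2 fold change was -0.09, and without gland 3 it turned to 0.48. Uqcrc1 (Entrez 22273, chr9:108936648-108949641), a core subunit on the matrix side, was at 313, 309 and 245 normalized cpm in the glands. The tumors ran from 130.4 through a median of 187 to 272, and 9 of 10 lay below all glands. It fell by 0.64 ± 0.19 (SE) on the log2 scale (limma, adjusted p = 0.0222), and it was not past the FDR without gland 1, without gland 2 or without the mouse of tumors 8, 9 and 10. Uqcrfs1 (Entrez 66694, chr13:30540312-30545316), the Rieske iron-sulfur protein, had the largest fall of the complex, at -0.65 ± 0.25 (SE), and was not past the FDR (limma, adjusted p = 0.0678). Gland values were 202, 210.1 and 360.5, and tumor values ran from 108 to 224, with 9 of 10 below all glands. Uqcrh-ps1, a pseudogene, had the largest positive value at 1.87 ± 0.90 (SE), and its glands were at 0, 0.103 and 39.0.

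In complex IV, 1 of the 12 members tested was lower, under the 13% of all genes, and none was higher. The median was -0.22, and without gland 3 it turned to 0.23. Cox6a1 (Entrez 12861, chr5:115345652-115348958), the isoform of subunit VIa found outside muscle, was at 367, 385 and 694 normalized cpm in the glands. The tumors ran from 200.2 through 291 to 343, all below the glands. It fell by 0.73 ± 0.22 (SE) on the log2 scale (limma, adjusted p = 0.0242), and without gland 3 the value was -0.44 with an adjusted p of 0.129. Without the mouse of tumors 8, 9 and 10 it was at -0.74 and not past the FDR. Cox4i1 (Entrez 12857, chr8:120668225-120674209), the common isoform of the largest nuclear-encoded subunit, was at 684, 816 and 2407 in the glands and from 439 to 1234 in the tumors. Its log2 fold change of -0.60 ± 0.41 (SE) did not pass the FDR (limma, adjusted p = 0.307), and gland 3 exceeded all other libraries. The largest positive value was that of Cox7c, a small membrane subunit, at 1.70 ± 0.72 (SE) with an adjusted p of 0.0934 by limma. Its glands were at 3.08, 3.51 and 80.8 and its tumors from 18.6 to 86.5, between gland 3 and the other glands for all but the highest tumor.

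In complex V, 2 of the 17 members tested were lower, near the 13% of all genes, and 1 was higher, against 14.8%, with a median log2 fold change of 0.27 that turned to -0.054 without gland 1 and was 0.78 without gland 3. The 5 genes of the F1 head and central stalk ran from -0.96 for Atp5d to 0.89 for Atp5e, with a median of -0.51 and 2 lower. The 4 genes of the peripheral stalk had a median of 0.09 and none past the FDR. Differences between these groups of subunits were not tested. Atp5d (Entrez 66043, chr10:80138698-80145828), the delta subunit of the central stalk, was at 148, 165 and 112 normalized cpm in the glands. The tumors ran from 48.9 through 70.5 to 119, with 9 of 10 below all glands. It fell by 0.96 ± 0.23 (SE) on the log2 scale (limma, adjusted p = 0.0059). Atp5a1, the alpha subunit, was at 1123, 1251 and 1023 in the glands and from 632 to 990.3 in the tumors, with no overlap, and its log2 fold change was -0.60 ± 0.19 (SE) with an adjusted p of 0.0264 by limma. Without gland 1 it was -0.60 and without gland 2 it was -0.53, and neither passed the FDR, nor did the fits without tumors 4 and 10 or without the mouse of tumors 8, 9 and 10, both at -0.60. Atp5b (Entrez 11947, chr10:128083307-128090388), the catalytic beta subunit, was at 1304, 1451 and 1486 in the glands and from 824 to 1388 in the tumors. At -0.51 ± 0.20 (SE) it did not pass the FDR (limma, adjusted p = 0.0812).

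The 3 genes of the c ring, the rotor in the membrane, encode the same mature protein, and their median log2 fold change was 1.14, or 0.71 after a correction for transcript length. Atp5g2 (Entrez 67942, chr15:102662868-102671047) was at 4.97 and 5.42 normalized cpm in glands 1 and 2 and at 32.7 in gland 3. Tumors ran from 18.5 through 27.6 to 30.2, above both low glands and below gland 3. It was called higher at 1.30 ± 0.38 (SE), with an adjusted p of 0.0198 by limma. Without gland 3 its value was 2.12, and without gland 1 it was 0.87 with an adjusted p of 0.177 by limma and without gland 2 it was 0.92. On the recovered reads it was 0.89 by edgeR and 0.86 by DESeq2, and neither called it. Its adjusted p was also no longer below 0.05 with 1 value per mouse and without the mouse of tumors 8, 9 and 10, both at 1.26. Atp5l (Entrez 27425, chr9:44913248-44920742), a membrane subunit, had the largest positive value of the complex at 2.22 ± 0.81 (SE), not past the FDR (limma, adjusted p = 0.0545). Its glands were at 1.88, 1.86 and 78.8 and its tumors from 20.1 to 126. The 5 membrane subunits outside the c ring and the peripheral stalk, Atp5l among them, ran from -0.11 to 2.22, with a median of 0.93, or 0.28 after that correction.

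**Figure D3:**
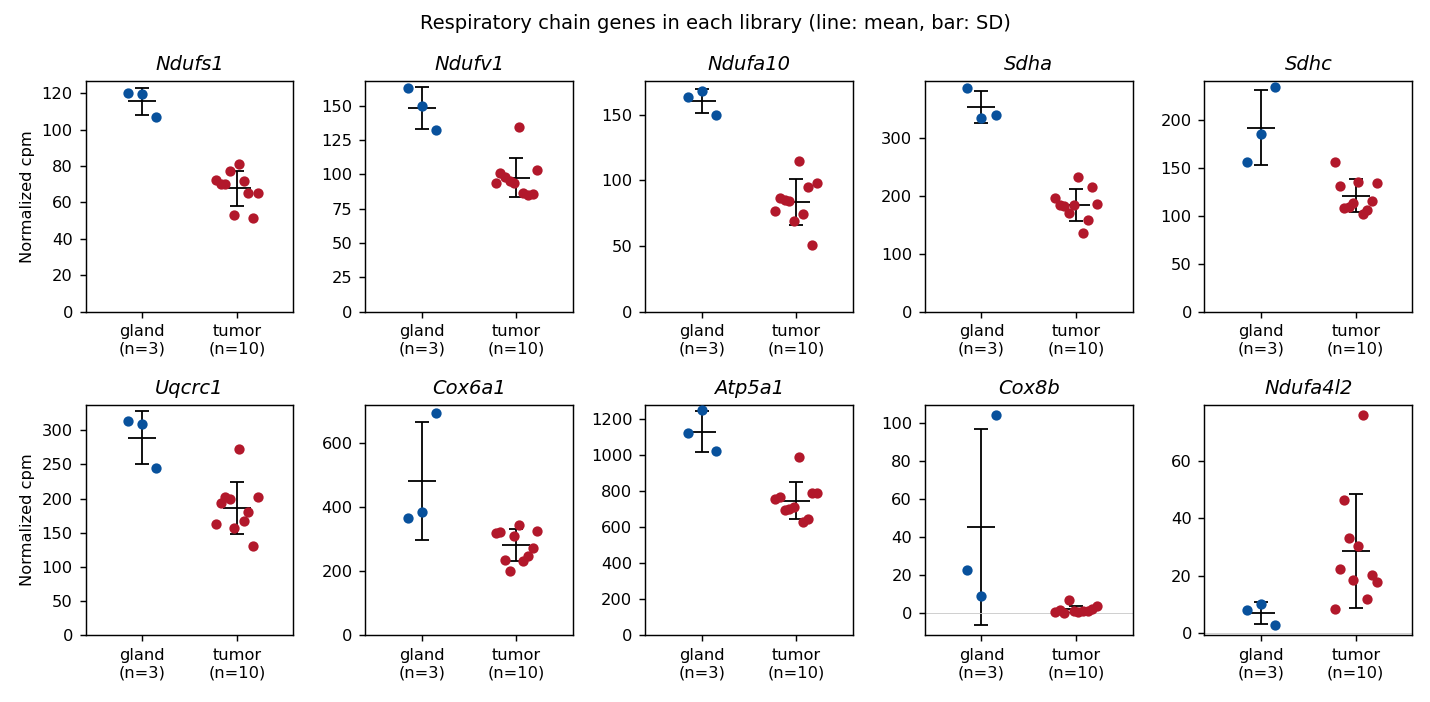
Normalized cpm (vertical axes) of 10 respiratory chain genes in the 3 glands and 10 tumors, with 1 point per library, the mean as a line and the SD as a bar. Ndufs1, Ndufa10, Sdha, Sdhc, Cox6a1, Atp5a1 and Cox8b do not overlap between the groups, and the falls of Ndufv1 and Uqcrc1 and the rise of Ndufa4l2 each hold in 9 of 10 tumors.

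All 10 tumors lay below all 3 glands for 7 of the 82 members tested, which is 8.54%, against 8.53% of all genes tested. They included Ndufs1, Ndufa10, Sdha, Sdhc, Cox6a1 and Atp5a1, and 6 of the 7 were among the 14 members over 1500 bases. For the other genes over 1500 bases the share was 9.18%. No member lay above all glands in all tumors, against 10.7% of all genes.

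The comparison was repeated after a smooth trend on transcript length, fitted in each library on genes that were no members, was taken off. This correction was added after the data were seen, and it could be made for 77 of the members tested. It moved the members' values to the lower side. At an FDR of 0.05, 32 members were lower, which is 41.6%, against 14.9% of all 11386 genes, and 4 were higher, against 16.1%. The 32 were 14 of complex I, 3 of complex II, 4 of complex III, 7 of complex IV and 4 of complex V, and they included all 11 that were lower without the correction. The median log2 fold change became -0.36 for complex I, -0.69 for complex II, -0.49 for complex III, -0.57 for complex IV and -0.10 for complex V. With the 2-fold limit 3 were higher, against 10% of all genes, and 5 were lower, against 7.3% of all genes, namely Cox7a1 at -1.59, Atp5d at -1.20, Cox6a1 at -1.19, Uqcrq at -1.16 and Cox5a at -1.03. All 10 tumors lay below all glands for 24 members, which is 31.2%, against 10.1% of all genes.

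The corrected values depended on the glands as well. The mean corrected log2 level over the members was 6.74 in glands 1 and 2 and 7.37 in gland 3, and the tumors ran from 6.52 to 6.83. Without gland 3, 26 members were lower, against 16.6% of all genes, and 11 were higher, against 16.4%. The medians of complexes I to V were then -0.16, -0.56, -0.34, -0.66 and 0.17, the last of them with its sign turned. At 2-fold 7 were lower, against 9.03%, and 8 higher, against 11.2%. With the slope of each library on transcript length as a covariate in place of the correction, 48 of 82 members were lower, against 18.0% of all genes, 4 of them at 2-fold, against 6.84%, and 4 were higher, against 21.1%. Of the 32 members lower with all glands, 25 were lower without gland 3, 23 without gland 1, 24 without gland 2, and 17 in all 3 of these fits. The 17 included Ndufs1, Ndufs3, Ndufv1, Ndufa1, Ndufa6, Ndufa10, Sdha, Sdhb, Uqcrfs1, Uqcrq, Cox4i1, Cox5a, Cox6a1, Cox6c, Cox7a1 and Atp5o. Each of the 5 complexes was among them. The shares of all genes lower without gland 1, without gland 2 and in all 3 fits were not counted. The counts for these are therefore not set against a background.

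Some short members changed their reading with the correction. Uqcrq (Entrez 22272, chr11:53427922-53430831), a small subunit of complex III near the quinone site, was at 154, 152 and 522 normalized cpm in the glands and from 94.8 to 278 in the tumors. The fitted log2 difference was -0.55 without the correction (limma, adjusted p = 0.307) and -1.16 ± 0.11 (SE) with it (limma, adjusted p = 3.14e-06). Cox5a, which holds a matrix-side position in complex IV, went from -0.63 to -1.03 ± 0.17 (SE), with a corrected adjusted p of 0.000318 by limma. Cox4i1 went from -0.60 to -0.93 ± 0.21 (SE), with a corrected adjusted p of 0.00311 by limma. The 4 members higher after the correction were Cox7c at 1.22, Atp5g2 at 0.74, Atp5h of the peripheral stalk at 1.03 and Atp5l at 1.75, and without gland 1 or without gland 2 none of the members was higher.

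**Figure D4:**
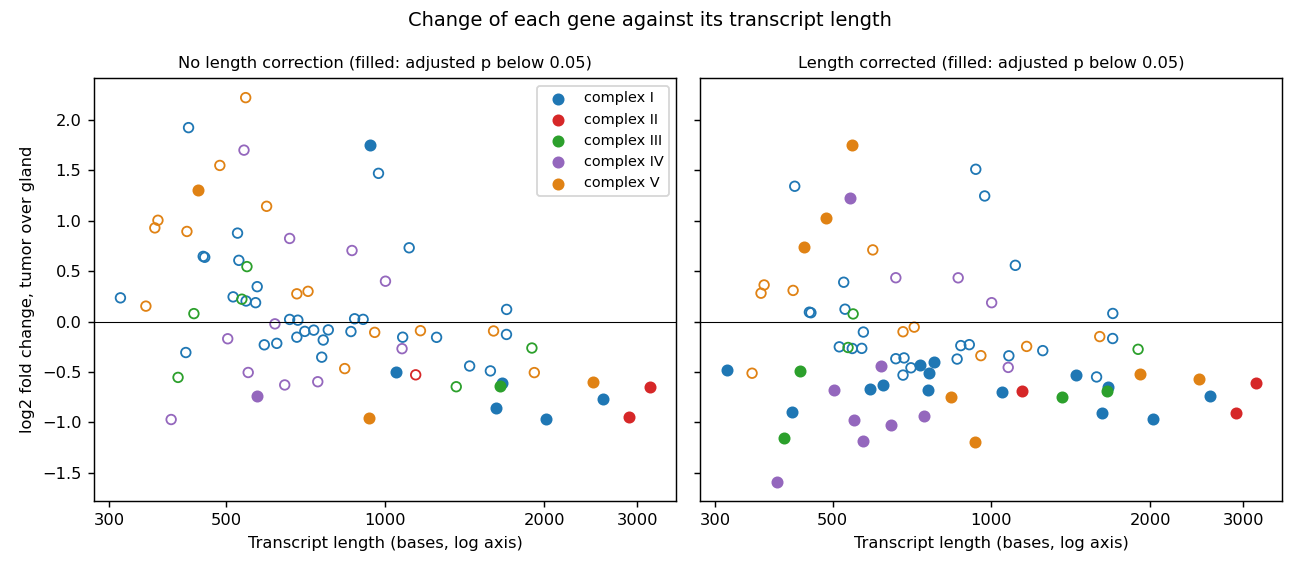
Log2 fold change of tumor over gland (vertical axis) against transcript length in bases (log axis) for the 77 members with a length that were tested, colored by complex and filled where the adjusted p is below 0.05. Without the correction the lower members sit mostly at the long end, and with it 32 members over the whole range of lengths are filled below 0 and 4 above.

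Complex IV and complex I have isoforms with restricted expression. A ratio of the restricted to the common isoform was compared within each library, as log2 of normalized cpm with 1 added to each, for the 5 pairs that had both genes listed. Cox7a1 is the isoform of muscle, heart and brown fat, and Cox7a2 the common one. The log2 ratio of Cox7a1 to Cox7a2 was -0.91, -1.03 and -1.26 in the glands, and from -3.53 through -2.79 to -2.17 in the tumors. All 10 tumors lay below all glands. The difference was -1.79, with an exact two-sided permutation p of 0.0035, the smallest that the arrangements of 13 libraries can give, and 0.0175 adjusted over the 5 pairs. The common isoform Cox7a2 was at 16.6, 12.5 and 167 normalized cpm in the glands and from 30.0 to 142 in the tumors. The ratio averaged -1.07 ± 0.18 (SD, n = 3) over the glands and -2.86 ± 0.43 (SD, n = 10) over the tumors. The ratio held after the length correction, at -2.02. The gene Cox7a1 itself was at 8.35, 5.63 and 69.0 normalized cpm in the glands and from 3.36 to 13.8 in the tumors, and its uncorrected log2 fold change of -0.97 ± 0.57 (SE) did not pass the FDR (limma, adjusted p = 0.232).

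Cox8b (Entrez 12869, chr7:140898942-140900446), the isoform of subunit VIII of muscle and brown fat, was at 22.4, 8.73 and 104 normalized cpm in the glands. In the tumors it ran from 0 in tumor 3 through a median of 0.818 to 6.62 in tumor 4, and no tumor reached the lowest gland. A count of 0 in tumor 3 allows up to 0.337 normalized cpm. In the test without a filter, its log2 fold change was -3.72 ± 0.64 (SE), with an adjusted p of 0.000443 by limma, where 10.1% of all genes were called lower. The log2 ratio of Cox8b to Cox8a was -3.81, -5.28 and -2.43 in the glands and from -8.49 through -7.19 to -4.86 in the tumors, with 9 of 10 tumors below all glands. Cox8a, the common isoform, was at 326, 376 and 565 normalized cpm in the glands and from 220.0 to 428 in the tumors. The difference in the ratio was -3.22 (exact two-sided permutation p = 0.007, 0.0175 adjusted over the 5 pairs). Without gland 1, and likewise without gland 3, the adjusted p of both ratios was 0.0758 in the exact test, in which 66 arrangements cannot give a p below 0.0152, and without gland 2 it was 0.0379. With 1 value per mouse the differences were -1.79 and -3.14, with an adjusted p of 0.0595 for both in the exact test, whose smallest p is then 0.0119.

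Markers of fat and muscle were read beside these isoforms. The 12 adipocyte markers summed to between 5076 and 12755 normalized cpm in the glands and between 101 and 659 in the tumors, and the test without a filter called all 12 lower. Of the 7 brown adipocyte markers listed, 5 were called lower in that test and 1 was called higher, Dio2, a thyroid hormone deiodinase, at 2.92 on the log2 scale. Of the 2 that passed the filter, Cidea was lower and Dio2 higher. Ucp1, which defines brown fat, was at 66.4, 14.4 and 108 in the glands, highest in gland 3 and lowest in gland 2 as for Cox8b, and between 0 and 1.08 in the tumors. Skeletal muscle markers summed to between 11.7 in tumor 8 and 2289 in tumor 4, against 8.65 to 34.0 in the glands. None of the 8 listed was called lower in the test without a filter. Acta1, the skeletal muscle actin, was at 629 in tumor 4 and 95.3 in tumor 10. These were the tumors with the highest Cox8b, at 6.62 and 3.56. Cox7a1 was at 5.87 in tumor 4 and 13.8 in tumor 10, where the tumor median was 7.74. The part of fat and muscle in the isoform levels was not tested. Without tumors 4 and 10, 2 members were called higher, against 9.7% of all genes, none was called lower, against 6.84%, and 9 of 82 were lower at the FDR of 0.05, against 11.1%.

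The other isoform pairs did not differ past the spread of the libraries. The log2 ratio of Cox4i2, an isoform known from lung and hypoxia, to Cox4i1 differed by 0.73 (exact permutation, adjusted p = 0.345). For Cox6b2, an isoform known from testis that was at 1.58, 1.45 and 2.32 normalized cpm in the glands and from 1.77 to 5.93 in the tumors, to Cox6b1 the difference was 0.69 (exact permutation, adjusted p = 0.227). In the test without a filter Cox6b2 itself was higher, at 0.67 ± 0.23 (SE) with an adjusted p of 0.0423 by limma, where 15.3% of all genes were higher, and 9 of 10 tumors exceeded all glands. For Ndufa4l2 to Ndufa4 it was 1.10 (exact permutation, adjusted p = 0.35). Ndufa4 itself, named after complex I and found in complex IV, was at 199, 229 and 1611 normalized cpm in the glands and from 281 to 1977 in the tumors. For Ndufa4l2 to Ndufa4, gland 3 was at -8.68 and the other glands at -4.43 and -4.36, so that the gland with the most Ndufa4 had the least Ndufa4l2. Cox7b, which has no listed restricted partner, was at 119, 155 and 1019 in the glands and from 154 to 1154 in the tumors, and its log2 fold change of 0.40 ± 0.67 (SE) did not pass the FDR (limma, adjusted p = 0.702).

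**Figure D5:**
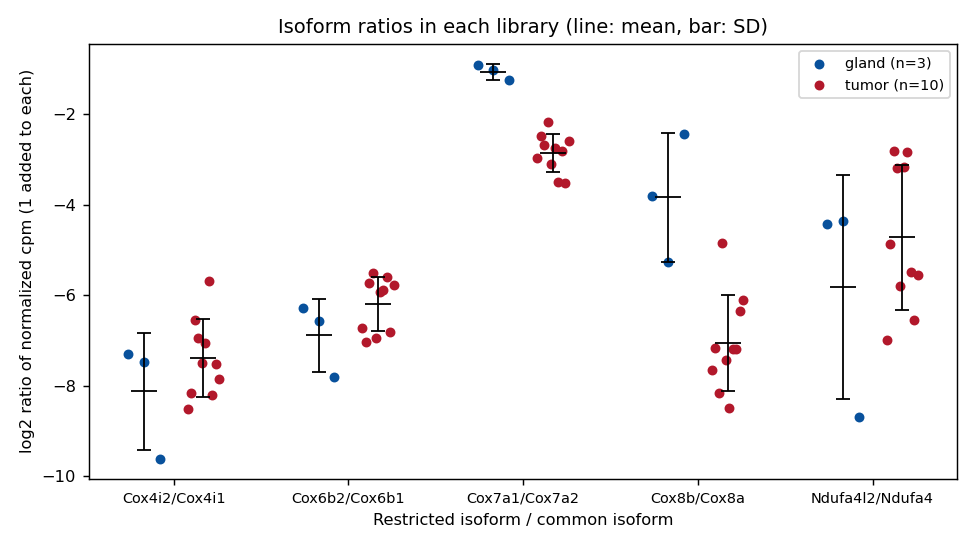
Log2 ratio of the restricted to the common isoform (vertical axis, 1 added to each normalized cpm) for 5 pairs in the 3 glands and 10 tumors, with 1 point per library, the mean as a line and the SD as a bar. The Cox7a1 to Cox7a2 ratio separates all 10 tumors from the glands, the Cox8b to Cox8a ratio separates 9, and the other pairs overlap.

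Promoters of the members are known for sites of the nuclear respiratory factor NRF1, of ETS factors such as GABP, and of the estrogen-related receptors. RefSeq promoters of GRCm38.p6, from 250 bases before to 50 bases after a start, were matched for 67 members. The NRF1 motif, the palindrome shown in capitals in Uqcrc1 and Atp5g2, was present in 7.46% of these, against 2.32% of the genes tested that had a promoter and 1.07% of all genes. The ETS letters CCGGAAG were present in 23.9%, against 20.8% of the genes tested, and the receptor letters TCAAGGTCA in 2.99%, against 0.303%. Both strands were searched, the NRF1 letters read the same on both, and no match shared bases with a match of another motif in the promoters shown. Of the 11 lower members, 7 had a promoter, 2 of them with the NRF1 letters, 2 with the ETS letters and none with the receptor letters. The promoters of the lower members that hold a motif, and that of Atp5g2, the c ring gene called higher by limma, are shown. They are printed in the direction of the gene with the matches in capitals. Whether these letters bear on the changes was not tested.
Cox6a1 (chr5:115348909-115349208, minus strand): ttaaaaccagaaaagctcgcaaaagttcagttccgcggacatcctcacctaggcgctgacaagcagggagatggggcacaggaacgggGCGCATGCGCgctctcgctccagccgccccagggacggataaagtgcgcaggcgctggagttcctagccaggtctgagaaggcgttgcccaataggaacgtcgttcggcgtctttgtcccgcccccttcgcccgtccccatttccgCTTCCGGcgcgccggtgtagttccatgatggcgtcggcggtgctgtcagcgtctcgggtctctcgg
Uqcrc1 (chr9:108936398-108936697, plus strand): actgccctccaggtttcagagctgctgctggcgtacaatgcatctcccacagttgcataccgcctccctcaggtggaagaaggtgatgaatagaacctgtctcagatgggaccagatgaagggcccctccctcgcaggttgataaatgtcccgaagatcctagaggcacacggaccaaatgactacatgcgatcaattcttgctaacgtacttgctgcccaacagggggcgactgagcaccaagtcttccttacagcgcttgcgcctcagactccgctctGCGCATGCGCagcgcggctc
Ndufs3 (chr2:90904672-90904971, minus strand): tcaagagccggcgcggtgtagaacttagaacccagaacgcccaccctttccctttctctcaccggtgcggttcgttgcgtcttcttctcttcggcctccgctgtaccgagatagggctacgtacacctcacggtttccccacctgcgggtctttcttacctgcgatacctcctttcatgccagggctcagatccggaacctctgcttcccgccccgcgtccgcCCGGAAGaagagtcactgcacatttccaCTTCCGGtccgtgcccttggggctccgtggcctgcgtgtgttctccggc
Atp5g2 (chr15:102670998-102671297, minus strand): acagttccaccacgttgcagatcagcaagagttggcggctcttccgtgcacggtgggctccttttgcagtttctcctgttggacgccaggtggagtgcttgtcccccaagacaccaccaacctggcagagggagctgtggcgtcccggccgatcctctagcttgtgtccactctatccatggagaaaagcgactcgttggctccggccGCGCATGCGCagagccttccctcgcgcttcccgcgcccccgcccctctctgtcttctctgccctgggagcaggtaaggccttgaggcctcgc
Cox6a1 held the NRF1 and the ETS letters, Uqcrc1 the NRF1 letters within the bases after its start, Ndufs3 the ETS letters on both strands, and Atp5g2 the NRF1 letters. The promoters of Sdha, Ndufa10, Ndufv1 and Atp5d held none of the 3 motifs, which says only that these letters are not in these windows.

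Genes of 3 lists of enzymes and carriers that feed the chain are set beside the share of all genes, of which 13% were lower at the FDR of 0.05, 6.99% were called lower and 14.9% were lower after the length correction. Of the 18 genes of the tricarboxylic acid cycle and pyruvate dehydrogenase, 14 were lower at the FDR of 0.05 and 7 of these were called, none was higher, and the median log2 fold change was -0.83, against 0.01 over all genes tested. Dlat and Pdhb, both of pyruvate dehydrogenase, had log2 fold changes of -1.73 and -1.5. Of the 16 genes of mitochondrial fatty acid oxidation, 13 were lower, 7 of them called, with a median of -0.93. Hadha, of the trifunctional protein, had a log2 fold change of -1.74. Decr1, needed for unsaturated fatty acids, had a log2 fold change of -1.75 ± 0.19 (SE), and Acsl1, which activates long-chain fatty acids, one of -3.38 ± 0.51 (SE). After the length correction 15 of the 18 and 13 of the 16 were lower. Electron carriers and the adenine nucleotide carriers gave 3 lower of 8, with a median of -0.38, and Etfb, which passes electrons from fatty acid oxidation to the chain, was called lower at -1.03 ± 0.18 (SE). The level of the adipocyte markers moved in the same direction as these lists, and its part in them was not tested.

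Assembly factors of the complexes gave 6 lower and none higher of 49 tested, or 7 after the length correction, with a median of -0.02. Coa5, a complex IV assembly factor, was called lower at -1.10 ± 0.22 (SE). The share of assembly factors lower did not exceed the 13% of all genes.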

How the data were processed

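RNA of 10 TSG101 mammary tumors and 3 wild-type mammary glands was sequenced. The authors used Rsubread to map paired-end reads to mm10, featureCounts to count reads on genes and edgeR to scale. The deposited signal values are read counts divided by the effective library size. Reads were recovered, since 100% of the values came out as whole reads in every library (tolerance 0.01 reads). The study's methods name the UNMC core facility for sequencing, the labels name it and Novogene for every sample, and no batch was assigned. The strand setting and the handling of reads that map to several genes were not given in the sources used here.

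Genes at or below 5 normalized cpm in most of the 13 libraries were left out, which removed 3418 genes and left 11795. limma 3.58.1 in R 4.3.3, with a trend in the prior variance, was fitted to log2(normalized cpm + 1) over all genes, with tumor against gland as the only term. A fold change is on this scale, which understates the change of low genes. Adjusted p-values are Benjamini-Hochberg over all genes tested, and calls used an FDR of 0.05 and a 2-fold change. limma called 1204 genes higher and 825 lower. edgeR 4.0.16 on the recovered reads called 1143 and 918, and DESeq2 1.42.0 called 1227 and 940. The fit treats tumors of 1 mouse as separate samples. Symbols were matched to RefSeq GRCm38.p6 for 15106 genes, and transcript lengths came from GENCODE for 14246 genes, 82 of them members. For the length correction, a lowess curve (span 0.3) of the deviations on log2 length over genes that were no members was taken off in each library. Isoform ratios were compared by exact two-sided permutation in Python 3.11.15. A floor of 3 reads is the 95% limit for a count of 0 and covers counting error only. No library pair was near sampling noise, the smallest chi-square per gene being 25.0. The fits were tested on simulated data.

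The members, the lists and the tests were chosen with earlier results of these data known. Members named by rule were those called, both genes of each isoform pair, Ndufv1, Sdha, Uqcrfs1, Cox4i1 and Atp5b, and the largest rise and fall of each complex. Up to 3 called genes with the largest changes were named from each other list. The remaining members named (those lower at the FDR, those that moved with the length correction, Sdhb, Sdhd) were named after their values were seen. Some genes that these rules name are not reported here. Alternatives covered scaling, filter, pseudocount, count tests, each library left out, 1 value per mouse and the replicate block.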

Additional observations from a re-analysis of the deposited data

Results flagged for a closer look

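Tumor 6 lay far above the other tumors for 4 of the members named, the gap to the nearest tumor being large against the whole range of the 10 tumors. Atp5a1 was at 990.3 normalized cpm in tumor 6 and the nearest tumor was at 793.2. Atp5b was at 1388 there, against 1057 in the nearest tumor. For Cox8a the values were 427.6 and 312.4, and for Ndufv1 134.2 and 103.3. Groups of 10 tumors were examined in this way for 39 genes, complex means or ratios, and chance alone singles out about 1 in 20 such groups. All 4 singled out were in the same library, whose values for Atp5b, Cox8a and Ndufv1 lay within the range of the glands, while that for Atp5a1 lay below it.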

How the results depend on the processing

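Counts are given as members called higher and lower at 2-fold, and then higher and lower at the FDR alone, against 2, 0, 2 and 11 in the reported fit. Not listed here are counts within 1.5 times the reported one. 1 value per mouse gave 1 higher at 2-fold and 1 higher at the FDR, and left the ratios of Cox7a1 at -1.79 and Cox8b at -3.14, with adjusted p of 0.0595 in a test whose smallest p was 0.0119. edgeR gave 1 higher, 1 lower and 1 higher at the FDR, and DESeq2 gave 1, 1, 1 and 18. Plain cpm gave 11 higher on both rules, 1 lower at the FDR and Cox6b1 at 0.30. Its medians of complexes I to V were 0.29, -0.26, 0.23, 0.11 and 0.60. Cpm without milk genes and Rn45s gave 7 higher on both rules and 7 lower at the FDR, with Cox6b1 at 0.10. Its medians of complexes I to V were 0.087, -0.47, 0.030, -0.099 and 0.40. Scaling to epithelial genes gave 1 higher on both rules, 11 lower at 2-fold and Cox7b at -0.030. Its medians of complexes I to V were -0.51, -1.08, -0.52, -0.65 and -0.15. The median of all genes was 0.33, 0.13 and -0.40 in these scalings, against 0.01 in the reported fit. Where no share of all genes is given for a fit, its member counts are not set against a background. No filter gave 5 higher and 1 lower, with 6 higher at the FDR. A pseudocount of 0.5 gave 5 higher on both rules, and one of 5 gave 1 at 2-fold.

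With the length correction, 3 were higher and 5 lower at 2-fold, and 4 higher and 32 lower at the FDR. The same correction gave 1 higher, 5 lower and 30 lower at the FDR with 1 value per mouse, 5 and 32 lower with tumors of a mouse correlated, and 4 lower at 2-fold with 4 and 32 at the FDR without tumor 9. Without gland 1 it gave 0 higher on both rules, 4 lower, 23 lower at the FDR, a complex III median of -0.56, Cox7b at -0.25 and Ndufa4 at -0.13. Without gland 2 it gave 0 higher on both rules, 4 lower, 25 lower at the FDR, a complex III median of -0.56, Cox7a2 at -0.045, Cox7b at -0.10 and Ndufa4 at -0.081. Without gland 3 it gave 8, 7, 11 and 26, with medians of -0.16 for complex I and 0.17 for complex V. The length slope as a covariate gave 4 lower at 2-fold, 4 and 48 at the FDR, medians of -0.49, -0.54 and -0.26 for complexes I, III and V, Cox7a2 at -0.16, Cox7b at -0.62 and Ndufa4 at -0.34.

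Without glands 1 and 2, 1 was higher on both rules and 8 lower at 2-fold, the medians of complexes I to V were -1.0, -0.96, -1.26, -1.27 and -0.90, and values turned for Atp5g2 (-0.33), Atp5l (-0.98), Cox7a2 (-1.47), Cox7b (-1.53), Cox7c (-1.14), Ndufa4 (-1.29), Ndufs6b (-1.16) and Uqcrh-ps1 (-1.64). Gland 3 was then the lone gland, assumed to vary like the tumors. Without the mouse of tumors 8, 9 and 10, 1 was higher on both rules and 7 lower at the FDR. Without tumors 4 and 10 Cox6b1 was at 0.043.

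Leaving out 1 library at a time gave 1 to 18 higher and 0 to 2 lower at 2-fold, and 1 to 22 higher and 8 to 13 lower at the FDR. The medians ran from -0.29 to 0.53 for complex I, -0.79 to -0.50 for II, -0.41 to 0.48 for III, -0.43 to 0.23 for IV and -0.054 to 0.78 for V, and the upper ends came without gland 3. The ratios ran from -0.017 to 1.15 for Cox4i2, 0.24 to 1.00 for Cox6b2, -1.89 to -1.72 for Cox7a1, -3.94 to -2.52 for Cox8b and -0.32 to 1.83 for Ndufa4l2. Without 1 library, Cox6b1 ran from -0.37 to 0.57, Cox7a1 from -1.62 to 0.079 and Cox7b from -0.18 to 1.37. The causes of these moves were not tested.

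The replicate block, tumors 1 to 3 paired with glands 1 to 3, gave 0 calls on all 4 counts and Cox6b1 at 0.0062. The deviations of same-numbered samples correlated at -0.58, 0.04 and -0.66, only number 2 matched best with its own number, and tumors and glands come from different mice, so the numbers do not pair the samples. Depth limits Cox8b, which had 0 reads in tumor 3, and the number of glands limits every comparison.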

Other observations

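The mitochondrial ribosomal RNAs were the only mitochondrial-encoded genes examined here that were listed. mt-Rnr2 was at 401, 394 and 2478 normalized cpm in glands 1, 2 and 3 and from 445 to 27577 in the tumors, the highest being tumor 9, and mt-Rnr1 was at 343, 403 and 1204 in the glands and from 367 to 9412 in the tumors. Neither passed the FDR in limma, with adjusted p of 0.469 for mt-Rnr1 and 0.424 for mt-Rnr2. Tumor 9 also had 27.4% of its reads in the ribosomal RNA gene Rn45s.

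The 77 mitochondrial ribosomal proteins, which translate the mitochondrial subunits, had a median log2 fold change of 0.07, with 2 lower and 1 higher at the FDR of 0.05, and 12 lower and 2 higher after the length correction, where the 12 are 15.6%, against 14.9% of all genes. Mrpl23 was the one called, at 1.63 ± 0.35 (SE). Of 14 regulators of mitochondrial biogenesis tested, 1 was lower, Esrra, the estrogen-related receptor alpha, at -0.86 ± 0.15 (SE) with an adjusted p of 0.0006 by limma. Ppargc1a, the coactivator that drives these genes in brown fat, did not pass the filter. None of the 18 genes of the outer membrane and import passed the FDR in limma, and their median was 0.06.

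Other markers differed between the groups. Milk protein genes summed to between 166084 and 305928 normalized cpm in the glands and between 1413 and 76994 in the tumors, squamous markers to between 16.9 and 41.3 in the glands and between 695 and 5051 in the tumors, and endothelial markers to between 283 and 623 and between 57.6 and 123. Their part in the levels of the respiratory chain genes was not tested.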
